A study of Mus musculus with 10 samples.

Results

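The placental prolactin, Psg and cathepsin families are 3 groups of mouse genes, with a pair of Tpbp genes beside them, that are used almost only in pregnancy. They were followed here in RNA sequencing of popliteal lymph nodes, the nodes that drain the hind paw. A gene was a member when it was protein coding and its name was a placental prolactin name (Prl2 to Prl8, with a letter and a number), a Psg name with a number, or one of Cts3, Cts6, Cts7, Cts8, Ctsj, Ctsm, Ctsq, Ctsr, Tpbpa and Tpbpb. This gave 48 members among the 54987 genes of the deposited table, made up of 25 Prl genes, 13 Psg genes, 8 cathepsins and 2 Tpbp genes. From what is known of them, 2 members were counted as decidual (Prl8a2 and Prl3c1), 1 as both decidual and trophoblast (Prl6a1) and 45 as trophoblast.

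All 10 libraries were labelled as nodes of male BALB/c mice aged 6 to 8 weeks, taken on day 15. Control libraries 15, 16 and 17 were from mice given saline under the skin of the right hind paw. AIA libraries 5, 10, 31 and 38 were from mice given 0.1 ml of complete Freund's adjuvant there, an oil emulsion with killed mycobacteria that brings on arthritis. Acu libraries 4, 6 and 28 were from mice given the adjuvant followed by acupuncture at ST36 (the point named in the series title), which lies below the knee. A sham acupuncture group that the protocol mentions was not analysed here. Whether every library is from a separate mouse is not in the labels, so the p-values below measure the spread between libraries.

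The rodent placenta carries expanded families of hormones and proteases. Placental prolactins are secreted hormones, and the placental lactogens among them act on the prolactin receptor of the mother while others act on vessels or immune cells. Psg proteins are secreted relatives of the Ceacam adhesion proteins, and the placental cathepsins are cysteine proteases of trophoblast, the outer cell layer of the conceptus. Decidual cells are uterine stromal cells that change their form around the implanting embryo, and they make some prolactins of their own.

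The libraries labelled Control 17 and Acu 4 went against their labels, and both names are used below only for those libraries. Summed over the 6 T cell and the 6 B cell markers, FPKM came to 2.35 and 1.77 in the library labelled Control 17 and to 3.47 and 4.34 in that labelled Acu 4. The library labelled Control 15 was as low, at 2.64 and 4.65, and its adipocyte markers summed to 18131 FPKM, while the remaining 7 libraries had T cell sums of 158 to 341 and B cell sums of 801 to 1136. Xist, the RNA of the inactive X chromosome of female cells, was at 87.2 FPKM in the library labelled Control 17 and at 60.1 in that labelled Acu 4, and at 0.0131 to 0.128 in the other 8, although the labels name male mice. Recovered reads ran from 13269763 to 18926894 per library.

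The members were read in depth in those 2 libraries and almost not at all in the others. The values are FPKM (fragments per kilobase of gene per 1e+06 reads), so that levels of different genes can be compared. In the library labelled Acu 4 the members took 614064 of the reads, a share of 3.35% (95% Wilson interval 3.34 to 3.36), and in that labelled Control 17 they took 161272 reads, or 0.861% (0.857 to 0.865). These intervals, and all others given for single libraries, cover counting error only. The other 8 libraries held 25 to 124 member reads each. The count in the library labelled Acu 4 alone was 1000.1 times their total of 614. At or above 1 FPKM stood 44 of the 48 members in the library labelled Acu 4 and 27 in that labelled Control 17. The same count was 1 in Control 15, AIA 31, AIA 38 and Acu 6 and 0 in Control 16, AIA 5, AIA 10 and Acu 28. With RNA from whole tissue, fewer cells of a type and less RNA per cell cannot be told apart.

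**Figure D1:**
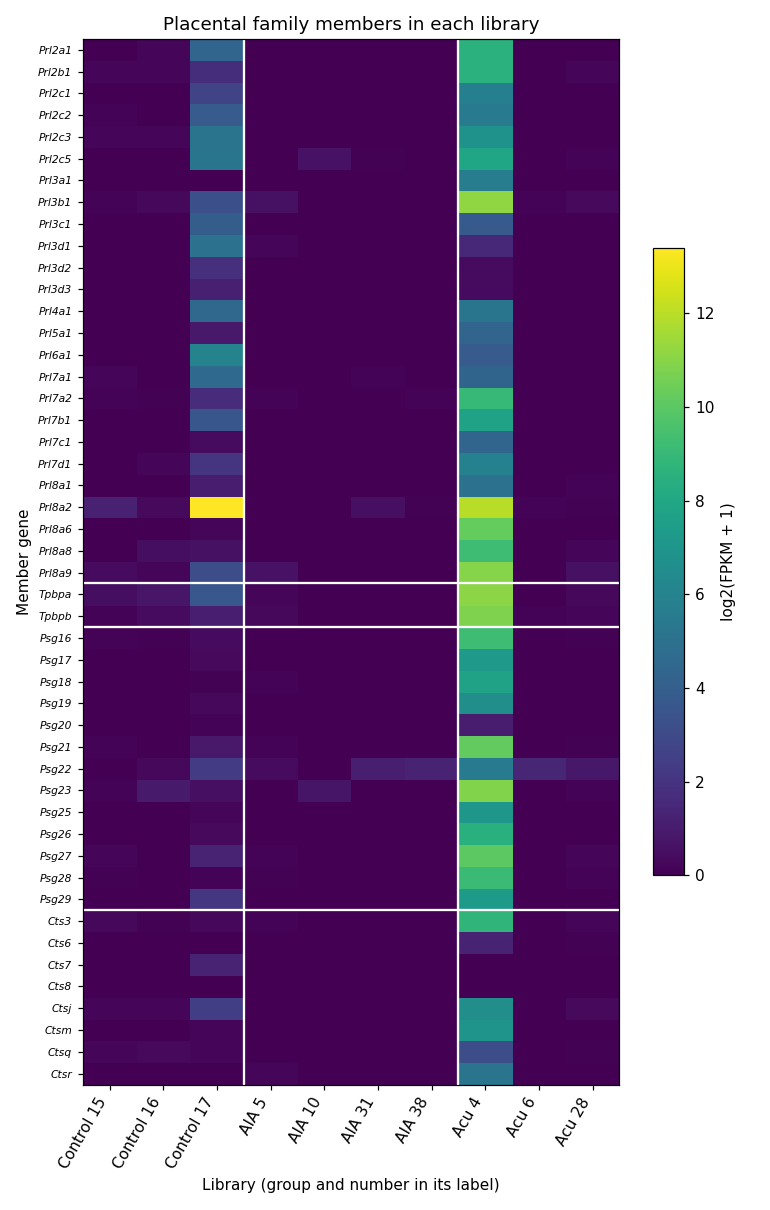
Level of each of the 48 members (rows, by family) in each of the 10 libraries (columns, by group and label number) as log2(FPKM + 1), on the colour scale at the right. White lines part the groups and the families. The columns Control 17 and Acu 4 carry nearly all of the signal, with Prl8a2 brightest in the former and most Prl, Tpbp and Psg rows bright in the latter.

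The start regions of 3 members that set the 2 libraries apart are shown first, since they let the families be seen as sequence. RefSeq promoters of the build GRCm38.p6, from 250 bases before to 50 after each start, were matched by symbol for 41 of the 48 members; Prl2c1, Prl2c2, Prl7b1, Prl8a2, Psg16, Psg19 and Psg22 were not matched. Each line gives the gene strand from 250 bases to 1 base before the start. Capitals mark a match to GATAA (the core that GATA factors bind), TGANTCA (the core that AP-1 binds) or TATAAA (the core of the TATA box). Each was searched on both strands. The match to TATAAA in Prl3b1 is on the opposite strand, 134 bases before the start, and its use as a TATA box was not tested. Prl3b1 is placental lactogen II (chr13:27242180-27242429, plus strand), Psg23 the highest Psg gene in the data (chr7:18616502-18616751, minus strand) and Tpbpa the marker gene of spongiotrophoblast (chr13:60941937-60942186, minus strand).
Prl3b1: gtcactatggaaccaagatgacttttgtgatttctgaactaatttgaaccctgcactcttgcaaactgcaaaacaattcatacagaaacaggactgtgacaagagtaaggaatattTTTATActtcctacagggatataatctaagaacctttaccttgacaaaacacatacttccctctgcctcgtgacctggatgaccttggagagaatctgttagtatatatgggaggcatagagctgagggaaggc
Psg23: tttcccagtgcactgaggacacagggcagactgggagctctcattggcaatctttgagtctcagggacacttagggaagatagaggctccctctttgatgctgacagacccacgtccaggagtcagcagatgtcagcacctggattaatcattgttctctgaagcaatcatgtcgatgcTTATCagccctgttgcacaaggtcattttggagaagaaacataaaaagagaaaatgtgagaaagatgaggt
Tpbpa: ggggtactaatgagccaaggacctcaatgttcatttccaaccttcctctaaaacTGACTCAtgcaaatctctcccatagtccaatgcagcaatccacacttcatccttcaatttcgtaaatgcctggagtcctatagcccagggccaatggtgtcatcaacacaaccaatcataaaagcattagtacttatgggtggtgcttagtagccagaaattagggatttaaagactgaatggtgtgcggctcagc

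Of the 10 Psg genes with a promoter entry, 9 hold a GATAA core, and the one nearest the start begins 60 to 83 bases before it. In 7 of the 9 it lies in the same 10-base run, cTTATCagcc. Psg28, Psg21 and Psg29 are shown as examples of these, and Psg27 and Psg26 because their letters around the core differ. All are on the minus strand except Psg29, at chr7:18432116-18432140 (Psg28), chr7:18656779-18656803 (Psg21), chr7:17203396-17203420 (Psg29), chr7:18567374-18567398 (Psg27) and chr7:18484195-18484219 (Psg26).
Psg28: atgtcgatgcTTATCagccttgttg
Psg21: atgtcgatgcTTATCagccctgttg
Psg29: atggggatgcTTATCagccttgttt
Psg27: atgtcgatacTTATCatctgtgttg
Psg26: atcataaagaGATAAaatgtgagaa

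Over all 45 member entries (some genes have more than 1 start), a GATAA core was found in 60%, against 25.4% of the 32851 mouse entries of the same length. TGANTCA was in 33.3% against 7.81%, and TATAAA in 17.8% against 13.6%. Members of a family descend from copies of a gene, so these entries are not independent, and the shares describe the sequences only. The promoter entries of Psg25 and Psg28 were the most alike of the Psg family, with 89.3% of positions identical. The gene without a GATAA core among the 10 was Psg20, singled out after its values were seen. It was at 1.14 FPKM in the library labelled Acu 4, the lowest of the Psg genes there. Outside the Psg family, members without the core ran from 0 FPKM (Cts8) to 2316 FPKM (Prl3b1) in that library. A tie between the core and the level was not tested.

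Prl8a2, also called decidual prolactin-related protein, was the leading decidual member (ENSMUSG00000018259, chr13:27345673-27354216, plus strand). It stood at 10739 FPKM in the library labelled Control 17 and at 3901 FPKM in that labelled Acu 4, where it ranked 2 and 6 among all genes. In the other Control libraries it was at 1.36 and 0.276 FPKM, in AIA 5, 10, 31 and 38 at 0, 0, 0.480 and 0.0626, and in Acu 6 and 28 at 0.105 and 0.0531. The levels of the 2 high libraries lay far above the rest. Among the rest, Control 15 and 16 lay above Acu 6 and 28, and the AIA libraries overlapped both groups. That order rests on 21 and 4 reads against 2 and 1. The share of all genes with such an order was not computed. Without the 2 high libraries and with no filter, Prl8a2 was not called in Acu minus Control (limma adjusted p 0.289). The library labelled Control 17 was 2.75-fold higher than the library labelled Acu 4 (2.73 to 2.78). Prl8a2 made up 97.0% of all member FPKM in the former and 16.9% in the latter.

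The other members that decidual cells use were lower and were found in the 2 libraries alone. Prl3c1, the second decidual member, which was first known from decidua and is also described in Leydig cells of the testis, was at 14.7 FPKM in the library labelled Control 17 and at 13.03 FPKM in that labelled Acu 4, and had 0 reads in the other 8. The ratio of Acu 4 to Control 17 was 0.886 with an interval of 0.725 to 1.08, so a difference was not detectable at this depth. Prl6a1, made in decidua and in spongiotrophoblast, was at 62.4 FPKM in the library labelled Control 17 and 13.4 in that labelled Acu 4, with 0 reads elsewhere, a 4.66-fold difference (4.06 to 5.38).

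Trophoblast members separated the 2 libraries in the other direction. Leaving out Prl6a1, trophoblast members made up 2.34% of the summed FPKM of decidual and trophoblast members in the library labelled Control 17 and 83.0% in that labelled Acu 4. Their sum was 258 FPKM in the former and 19153 FPKM in the latter. At or above 1 FPKM were 24 of the 45 trophoblast members in the library labelled Control 17 and 41 in that labelled Acu 4. By the counting interval of each ratio, 39 members were higher in the library labelled Acu 4 and 7 in that labelled Control 17 (Prl8a2, Prl6a1, Prl3d1, Prl3d2, Prl3d3, Prl7a1 and Cts7). Prl3c1 had an interval that includes 1, and Cts8 had no read in any library. The shares of all genes with such an interval above or below 1 were not computed, so the counts by interval describe the members only. On the log2(FPKM + 1) scale, 37 of the 47 members at or above 1 FPKM in either library were at least 2-fold higher in the library labelled Acu 4, where 11.4% of 14491 genes were, and 5 were at least 2-fold higher in that labelled Control 17, where 7.21% of genes were. The median difference was 4.22 over these members and -0.04 over all 14491 genes. With 1 library on each side this difference has no replicate check, and it compares these libraries, not Acu with Control.

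**Figure D2:**
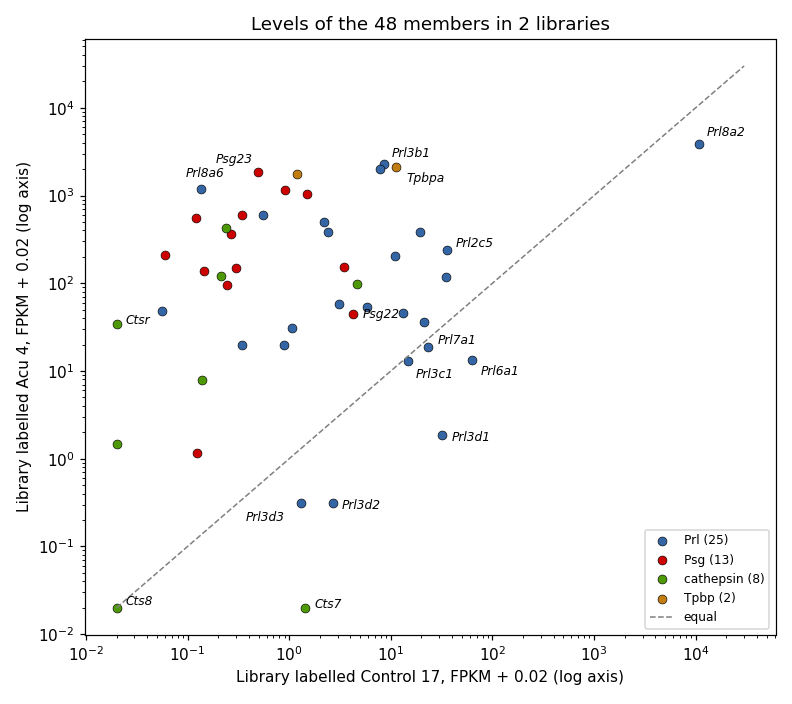
FPKM of each of the 48 members in the library labelled Control 17 (x) and that labelled Acu 4 (y), both with 0.02 added and on log axes; colours give the family and the dashed line marks equal levels. Psg, Tpbp and most cathepsin points lie above the line, and Prl8a2, Prl6a1, the 3 Prl3d genes, Prl7a1 and Cts7 lie below it.

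The placental lactogens, the ligands of the prolactin receptor made by trophoblast giant cells, split between the 2 libraries. Prl3d1 (chr13:27094190-27100258, plus strand), placental lactogen I, was at 32.2 FPKM in the library labelled Control 17 and at 1.87 FPKM in that labelled Acu 4. It was at 0.156 FPKM in AIA 5, from 2 reads, and at 0 in the other 7. The library labelled Control 17 was thus 17.2-fold higher (11.6 to 26.7) than the library labelled Acu 4. Prl3d2 and Prl3d3, its close copies, were at 2.66 and 1.29 FPKM in the library labelled Control 17 and at 0.293 and 0.292 FPKM in that labelled Acu 4, which is 9.07-fold (3.24 to 35.1) and 4.41-fold (1.44 to 18.0) lower. Both had 0 reads in the other 8 libraries. The 3 genes share 57.1% to 68.2% of their transcripts' 50-base words with other genes, mostly with each other, so how reads fell among them is uncertain.

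Prl3b1, placental lactogen II, which follows placental lactogen I as pregnancy goes on, showed the opposite order (chr13:27241847-27249683, plus strand). It was at 8.55 FPKM in the library labelled Control 17 and at 2316 FPKM in that labelled Acu 4, a 271-fold difference (229 to 322), and was the highest trophoblast member there. Control 15 and 16 had 0.114 and 0.243 FPKM, AIA 5 had 0.512, AIA 10, 31 and 38 had 0, and Acu 6 and 28 had 0.0925 and 0.280. No 50-base word of Prl3b1 or of Prl8a2 was shared with another gene.

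The proliferins (Prl2c genes) and the proliferin-related protein Prl7d1, which act on the growth of vessels, were present in both libraries and higher in the library labelled Acu 4. Prl2c5 was at 35.6 FPKM in the library labelled Control 17 and 238 in that labelled Acu 4 (6.68-fold, 6.14 to 7.26). Prl2c3 was at 34.7 and 117 FPKM in the same order (3.39-fold), and Prl2c2 at 13.1 and 46.0 (3.50-fold). Prl2c2 shares 89.5% and Prl2c3 78.6% of 50-base words with other genes, so their levels are uncertain one by one. Prl2c1 was at 5.81 and 54.0 FPKM (9.29-fold) and Prl7d1 at 3.10 and 58.5 FPKM (18.9-fold). Outside the 2 libraries the highest proliferin level was 0.5996 FPKM, Prl2c5 in AIA 10 from 8 reads. Prl2c4 was not analysed here.

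Among the non-classical prolactins, which have no known action on the prolactin receptor, the widest gap was that of Prl8a6. It was at 0.116 FPKM in the library labelled Control 17, from 2 reads, and at 1182 FPKM in that labelled Acu 4, a ratio of 10208 with a counting interval of 2825 to 84293. Prl8a9 was at 7.81 FPKM in the library labelled Control 17 and at 1999 FPKM in that labelled Acu 4 (256-fold, 213 to 311). Prl8a8 and Prl7a2 were at 0.534 and 2.19 FPKM in the former and at 600 and 493 FPKM in the latter. Prl7a1 was the trophoblast prolactin with the smallest gap, at 23.3 FPKM against 18.7, which is 1.24-fold higher in the library labelled Control 17 (1.10 to 1.41). Prl4a1, which acts on natural killer cells of the uterus, was at 20.97 FPKM against 36.5 (1.74-fold higher in the library labelled Acu 4). The remaining Prl members (Prl2a1, Prl2b1, Prl3a1, Prl5a1, Prl7b1, Prl7c1 and Prl8a1) ran from 0.0366 to 19.5 FPKM in the library labelled Control 17 and from 19.7 to 381 FPKM in that labelled Acu 4. Prl8a8, Prl7a2, Prl7a1 and Prl4a1 were named after their values were seen.

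Tpbpa and Tpbpb, small secreted proteins of spongiotrophoblast and its precursors, were among the highest genes of the library labelled Acu 4. Tpbpa (chr13:60938492-60941984, minus strand) was at 2106 FPKM there, rank 18, and at 11.2 FPKM in the library labelled Control 17, a 187-fold difference (169 to 208). Control 15 and 16 had 0.399 and 0.759 FPKM, AIA 5 had 0.192, Acu 28 had 0.234, and AIA 10, 31 and 38 and Acu 6 had 0. Tpbpb was at 1755 FPKM in the library labelled Acu 4 and 1.17 FPKM in that labelled Control 17 (1496-fold, 997 to 2360), and at most at 0.304 FPKM elsewhere. Together the pair took 16.7% of member FPKM in the library labelled Acu 4 and 0.112% in that labelled Control 17.

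All 13 Psg genes were higher in the library labelled Acu 4, with ratios from 10.6 to 5589 and a median of 1093, against a median of 18.8 for the Prl genes. The family summed to 6352 FPKM there and to 12.0 FPKM in the library labelled Control 17. Psg23 was the highest, at 1842 FPKM against 0.478 (3851-fold, 2371 to 6738). Psg21 stood at 1148 FPKM against 0.894, Psg27 at 1048 against 1.48 and Psg16, a form also known from brain, at 597 against 0.320. The highest ratio was that of Psg28, at 560 FPKM against 0.100, the latter from 3 reads (5589-fold, 1912 to 27106). The lowest was that of Psg22, at 44.9 FPKM against 4.25 (10.6-fold, 8.79 to 12.8), a form made early by giant cells. Psg17, Psg18, Psg19, Psg25, Psg26 and Psg29 ran from 95.8 to 364 FPKM in the library labelled Acu 4 and from 0.0403 to 3.42 FPKM in that labelled Control 17. Psg21 shares 45.5% and Psg23 37.2% of 50-base words with other genes, mostly with each other. Psg26 shares 35.9% and Psg28 31.3%, so how reads fell among these Psg genes, and their order, is uncertain.

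The cathepsins were the family with the lowest summed FPKM in both libraries, at 692 in the library labelled Acu 4 and 6.55 in that labelled Control 17. Cts3 was at 428 FPKM in the library labelled Acu 4 and 0.220 in that labelled Control 17 (1948-fold, 989 to 4514), and Ctsm at 121 against 0.194 (626-fold, 287 to 1707). Ctsj was at 98.9 against 4.62 FPKM (21.4-fold, 17.5 to 26.4). Ctsr was at 34.1 FPKM in the library labelled Acu 4 and had 0 reads in that labelled Control 17, so it was at least 247-fold higher in the former against a floor of 3 reads per library, and the counting interval of the ratio began at 200.3. Ctsq was at 7.94 against 0.117 FPKM, and Cts6 at 1.44 FPKM against 0 reads (at least 9.96-fold against that floor, with an interval from 7.63). Cts7, known from invasive giant cells, went the other way. It had 1.41 FPKM from 37 reads in the library labelled Control 17 and 0 reads in that labelled Acu 4, at least 12.8-fold higher in the former against that floor, with an interval from 9.89. Cts3, Cts8, Ctsm and Tpbpb overlap a second coding gene in the annotation on the same strand, Prl6a1 and Psg16 overlap a processed pseudogene, and no source used here says if the counting used strand.

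Most members lie in tandem clusters, and the difference between the 2 libraries was not even along them. In the Prl cluster (chr13:27094190-28151611, 22 members over 1057 kb) the 3 Prl3d genes at its first end were higher in the library labelled Control 17, and Prl3b1, which follows Prl3c1 after them, was 271-fold higher in that labelled Acu 4. Prl6a1 and Prl8a2 lie next to each other and were both higher in the library labelled Control 17. The Psg cluster (chr7:17074040-18821607, 13 members over 1748 kb) also holds 49 other annotated genes. Of these, 13 were at or above 1 FPKM in the library labelled Acu 4 and 0 in that labelled Control 17. The cluster of cathepsins and Tpbp genes (chr13:60901188-61570127) holds 10 members, all on the minus strand, with 8 at or above 1 FPKM in the library labelled Acu 4 and 4 in that labelled Control 17. Ctla2a, an inhibitor of cathepsins that lies in the same span, was high in both, at 5027 FPKM in the library labelled Acu 4 and 3249 in that labelled Control 17, against 5.66 to 23.1 in the other 8.

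**Figure D3:**
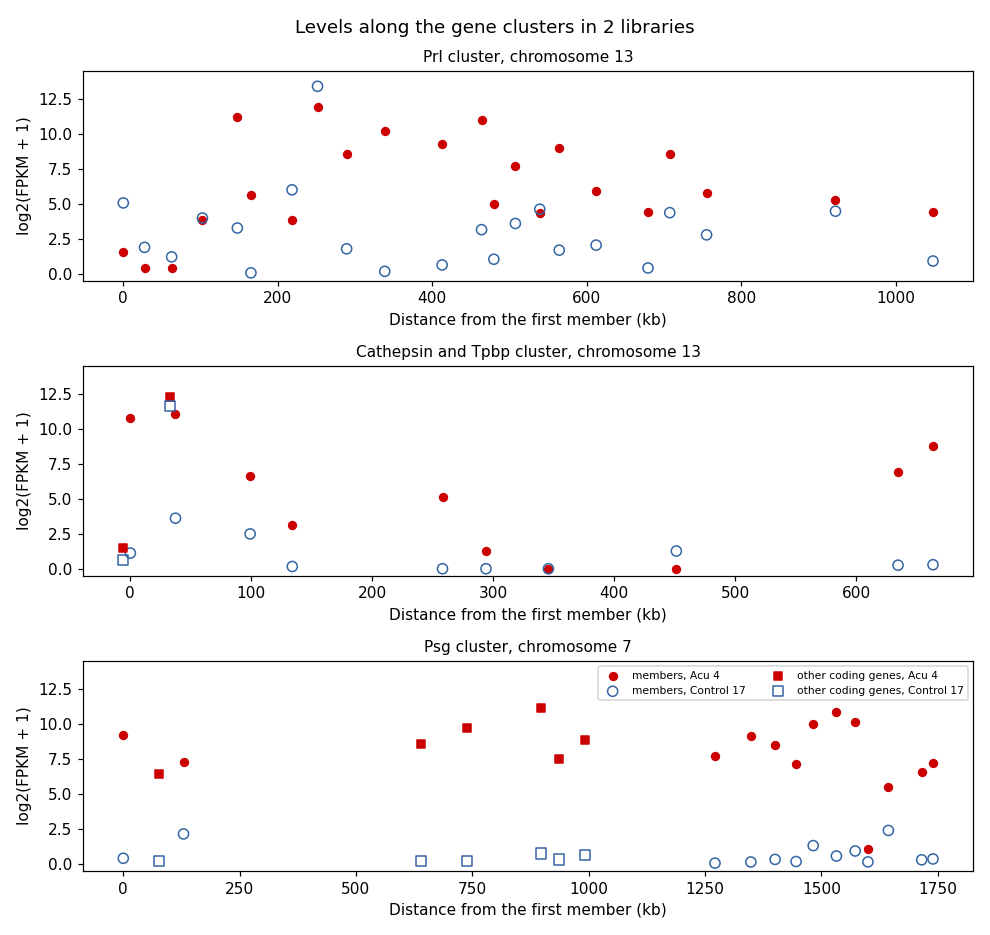
log2(FPKM + 1) of members (circles) and other coding genes (squares) along the Prl, the cathepsin and Tpbp, and the Psg cluster, by distance in kb from the first member, in the library labelled Acu 4 (filled red) and that labelled Control 17 (open blue). Red lies above blue at each gene drawn in the Psg cluster, and blue above red at the first Prl genes and at Prl8a2.

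Genes that act beside the members were read from lists. Of the 8 Ceacam genes of trophoblast, relatives of the Psg genes, 6 were at least 2-fold higher in the library labelled Acu 4 and 1 in that labelled Control 17, with a median difference of 7.70 in log2. Ceacam11 was at 2230 FPKM in the library labelled Acu 4 and 0.680 in that labelled Control 17. Ceacam9 went the other way, at 0.757 and 14.4 FPKM. Of 25 trophoblast regulators and markers, 10 were at least 2-fold higher in the library labelled Acu 4 and 3 in that labelled Control 17, with a median of 0.18. Among them the trophoblast keratins Krt18 and Krt8 were at 293 and 232 FPKM in the library labelled Acu 4 and at 87.2 and 10.8 in that labelled Control 17. The 3 that were at least 2-fold higher in the library labelled Control 17 were the transcription factors Gata2, Gata3 and Eomes. They were at 35.0, 19.3 and 14.1 FPKM there and at 15.6, 8.45 and 3.17 in that labelled Acu 4. The lactate transporter Slc16a1 was at 42.7 against 22.6. In the other 8 libraries Gata2 was at 0 to 6.28 FPKM, Gata3 at 0.321 to 5.21 and Eomes at 0.176 to 5.55. Eomes in the library labelled Acu 4 lay within that range. Slc16a1 was at 6.13 to 15.5 FPKM in those 8, and Krt18 and Krt8 were at most at 0.728 and 0.178. Of the 25, 4 (Rhox6, Rhox9, Synb and Rtl1) were listed at 0 in the libraries labelled Control 17 and Acu 4.

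Of 14 markers of decidua and uterus, 7 were at least 2-fold higher in the library labelled Control 17 and 0 in that labelled Acu 4, with a median of -1.06. Dcn, a matrix protein of many stromal cells, was higher in the library labelled Acu 4, at 644 FPKM against 473, and Alpl was lower in both (3.71 and 2.06 FPKM) than in the other 8 (3.85 to 11.6). The summed FPKM of the 14 was 4102 in the library labelled Control 17 and 2486 in that labelled Acu 4, against 49.9 to 236 in the other 8 libraries. The granzymes Gzmc to Gzmg, proteases of uterine natural killer cells, had a summed FPKM of 14918 in the library labelled Control 17 and of 7363 in that labelled Acu 4, against 1.13 to 16.4 elsewhere. The 3 embryonic globins summed to 355 FPKM in the library labelled Control 17 and 0.762 in that labelled Acu 4, and to 0.186 or less elsewhere. The 8 yolk sac genes had 5 at least 2-fold higher in the library labelled Acu 4, led by Rbp4 at 951 FPKM against 21.6, a gene that fat also uses and that was at 486 FPKM in Control 15. The part of each cell type in the member levels was not tested.

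Prlr, the receptor for prolactin and the placental lactogens, was at 6.34 FPKM in the library labelled Acu 4, 0.561 in that labelled Control 17 and 0.122 to 0.488 in the other 8. The shares of all genes at least 2-fold higher in one of the 2 libraries, 11.4% and 7.21% as given above, stand beside the counts that follow. Of the 10 genes of the prolactin pathway, 3 were at least 2-fold higher in the library labelled Acu 4 and 1, the feedback inhibitor Socs3, in that labelled Control 17. Pituitary prolactin itself (Prl) was at 0.0446 FPKM in the library labelled Acu 4 and listed at 0 in every other library. Of 5 genes whose products bind Psg proteins or are activated by them, 1 was at least 2-fold higher in the library labelled Acu 4 and 0 in that labelled Control 17. The integrin subunit Itgb3 was at 93.2 and 124 FPKM in those libraries and at 0.474 to 10.6 elsewhere. Cd9 was also above the rest, at 88.3 and 80.8 against 12.3 to 38.1. The integrin subunit Itga2b was below the rest, at 0.783 and 0.490 against 1.14 to 4.71. Sdc1 and Tgfb1 lay within the range of the other 8 in both libraries. Of 13 cathepsin inhibitors and general cathepsins, 3 were at least 2-fold higher in the library labelled Acu 4, among them Ctsb, at 1941 FPKM against 312, and 0 in that labelled Control 17.

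In the other 8 libraries, 32 members had at least 1 read and 16 had none, and 2 reached 1 FPKM in any library. One of the 2 was Prl8a2, in Control 15 as given above. The other was Psg22 (chr7:18718090-18727248, plus strand), with 200 of the 614 member reads, or 32.6%. Psg22 had 0 and 0.208 FPKM in Control 15 and 16, and 0.291, 0, 1.20 and 1.54 in AIA 5, 10, 31 and 38. In Acu 6 and 28 it had 1.71 and 0.852 FPKM. Acu 6 and 28 (65 and 32 reads) lay above Control 15 and 16 (0 and 6 reads), and the AIA libraries overlapped both groups. For this order too, the share of all genes was not computed. In AIA 31, AIA 38 and Acu 6 it made up 74.1%, 86.0% and 87.8% of member reads, and the other members together had 14, 8 and 9 reads there. In Control 15, Control 16, AIA 5 and Acu 28 the members without Psg22 had 97, 118, 53 and 90 reads, and in AIA 10 they had 25, namely Psg23 with 17 and Prl2c5 with 8.

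The reads in these 8 libraries were set beside the depth of each member in the library labelled Acu 4. Of the 17 members with at least 10000 reads there, 16 had reads in the 8 libraries, and of the 18 with fewer than 1000 reads, 7 did. Psg22 falls in neither group, with 1339 reads in the library labelled Acu 4. It had 200 reads over the 8 libraries, the most of any member. Psg23 had 61 reads over the 8 libraries, Tpbpa 55 and Prl8a2 37. These 3 had 63895, 71522 and 58315 reads in the library labelled Acu 4, and 16, 368 and 154820 in that labelled Control 17. The exception among the 17 was Prl8a6, with 21171 reads in the library labelled Acu 4 and 0 in the 8. The same shares over all genes were not computed, so these counts describe the members only. Where the reads in the 8 libraries came from was not tested.

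**Figure D4:**
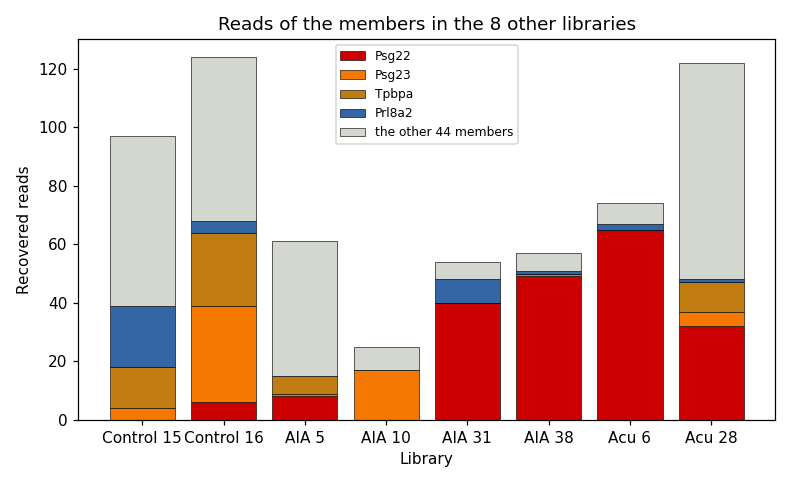
Recovered reads of the members in the 8 libraries other than those labelled Control 17 and Acu 4 (bars from 0), split into Psg22, Psg23, Tpbpa, Prl8a2 and the other 44 members. Psg22 fills most of the bars of AIA 31, AIA 38 and Acu 6 and is absent from Control 15 and AIA 10.

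The treatment comparisons were fitted by limma to log2(FPKM + 1) over all 10 libraries and 17030 genes that reached 0.5 FPKM in at least 3 libraries. Only 7 members passed that filter (Prl8a2, Prl3b1, Tpbpa, Prl8a9, Psg23, Prl2c5 and Psg22), and without the libraries labelled Control 17 and Acu 4 all but Psg22 missed it, so their number supports nothing. In AIA minus Control, 0 of the 7 passed an adjusted p of 0.05, where 0.0235% of all genes did (4 genes). In Acu minus AIA and in Acu minus Control, 0 of the 7 passed, where 0.0% of all genes did. At an unadjusted p under 0.05 stood 4250, 804 and 1278 genes in the 3 comparisons and 0 of the 7 members in each, and limma with voom on the recovered reads called 0 genes in each. Each pair of comparisons shares a group of libraries.

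With no filter, the 47 members with reads had a median log2 fold change of -0.42 in AIA minus Control, 2.33 in Acu minus AIA and 1.71 in Acu minus Control, against -0.022, 0.034 and 0.0039 over all 32104 genes. With no filter and without the libraries labelled Control 17 and Acu 4, the medians over 32 members were -0.070, 0.017 and -0.040. The values that follow are from the filtered fit of all 10 libraries. Prl8a2 had a log2 fold change of -4.83 (SE 3.43) in AIA minus Control, with an adjusted p of 0.392 by limma. Its Acu minus AIA value was 3.89 (SE 3.43, limma adjusted p 0.752), with 1 of the 3 Acu libraries above every AIA library. Prl3b1 had 3.74 in Acu minus AIA (SE 2.26, limma adjusted p 0.746), again with 1 of 3 libraries above every AIA library.

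Without the libraries labelled Control 17 and Acu 4, limma tested 16030 genes and called 13.5% of them in AIA minus Control, 0.0% in Acu minus AIA and 4.47% in Acu minus Control. The Control libraries left were 15 and 16. Their adipocyte markers summed to 18131 and 6387 FPKM, against 42.4 to 275 in the AIA and Acu libraries left. Their skeletal muscle markers summed to 1914 and 7151 FPKM, against 3.42 to 1843. The part of tissue content in the calls against Control was not tested. Psg22 was the one member that passed the filter in this fit, and it was called in none of the 3 comparisons. Its log2 fold changes were 0.57 (SE 0.40) in AIA minus Control and 1.02 (SE 0.47, limma adjusted p 0.240) in Acu minus Control, where it had been -0.17 and 1.73 with all libraries. With the filter dropped as well, a setting chosen after seeing the data, 3 of 32 members were called in AIA minus Control, where 8.49% of 29825 genes were. These were Tpbpa (-0.58, adjusted p 0.0446), Prl2c3 (-0.19, adjusted p 0.00957) and Ctsq (-0.27, adjusted p 0.0198), all by limma and all at 0.759 FPKM or less in every library kept. Prl2c3 had 0.134 and 0.143 FPKM in Control 15 and 16 and 0 in all 4 AIA libraries, and Tpbpa was above 0 in both of those Control libraries and in 1 of the 4 AIA libraries. In Acu minus Control 1 of the 32 was called (Prl2c3, -0.16, limma adjusted p 0.0376), where 3.49% of genes were, and in Acu minus AIA 0, where 0.235% were.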

How the data were processed

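Per the labels' protocols, RNA came from a Trizol extraction and NEBNext Ultra was the library kit. Per the submitters' processing notes, the build was mm10 and the tools included featureCounts 1.5.0-p3, HISAT2 2.0.5, DESeq2 1.16.1 and StringTie 1.3.3b, with no role given. The authors deposited FPKM for 54987 genes. FPKM times gene length was a whole multiple of 1 step in each library for 100% of genes above 0 (tolerance 0.01 of a step), so that reads could be recovered. Coordinates of all 48 members equalled GENCODE M21 (GRCm38).

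FPKM were rescaled by the median of ratios (0.996 in every library, so the deposited values were already scaled) for tests only; levels in the text are as deposited. limma 3.58.1 in R 4.3.3 fitted log2(FPKM + 1), with a trend, in 3 groups, adjusted by Benjamini and Hochberg over all genes tested. The pseudocount makes fold changes of low genes smaller. The fit was tested on simulated data. Ratios between 2 libraries carry exact binomial 95% intervals of their reads. Other steps used Python 3.11.15 with scipy 1.17.1, pandas 2.3.3, numpy 2.4.6 and matplotlib 3.10.9.

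The members and lists were chosen with earlier results of these data known. Members named with values are the decidual members, lactogens and proliferins, the 4 highest of each family, those at or above 1 FPKM outside the libraries labelled Control 17 and Acu 4, and those with the highest and lowest ratio of each family. Alternatives tried were a pseudocount of 0.1, other filters, FPKM as deposited, voom, other thresholds and leaving out libraries. Some promoter sequences are not reported here.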

Additional observations from a re-analysis of the deposited data

Results flagged for a closer look

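AIA is the only group with 4 libraries, and 12 quantities were examined there for a library whose gap to the nearest of the others exceeded Dixon's 95% critical value. Chance flags about 1 group in 20 this way, and a gene with reads in 1 library alone is always flagged, so these 8 flags mark single libraries with a few reads. In AIA 31, Prl8a2 was at 0.480 FPKM. In AIA 5, Prl3b1 was at 0.512, Tpbpa at 0.192 and Prl8a9 at 0.579 FPKM, and the summed levels were 0.231 FPKM for the cathepsins and 0.405 FPKM for the Tpbp genes. In AIA 10, the library with the fewest recovered reads, Psg23 was at 0.688 and Prl2c5 at 0.5996 FPKM. No cause of these values was tested.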

How the results depend on the processing

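No paired analysis was possible because the groups share no replicate number. The number of genes called in AIA minus Control (4) was 0 with a pseudocount of 0.1 and by voom, 1 with no filter, and 2163 without the libraries labelled Control 17 and Acu 4 (2531 with no filter as well). Leaving out 1 library at a time gave 0 to 1707 genes for AIA minus Control (958 without Control 17 and 1707 without Acu 4), 0 to 1 for Acu minus AIA and 0 to 299 for Acu minus Control. Acu minus AIA had 2 genes with no filter and 70 without the pair and no filter. Acu minus Control had 1 with no filter, 716 without the pair and 1040 without the pair and no filter. Calls of members were 0 in 49 of 51 such fits. They were 3 (AIA minus Control) and 1 (Acu minus Control) without the pair and no filter. Leaving out 1 library gave 0 to 0. Few members passed the usual filter, namely 7 with all libraries, 3 without Control 17, 2 without Acu 4 and 1 without the pair. These counts of 0 therefore do not show that the result is stable.

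Of 294 alternative fold changes of the 7 members, 16 reversed. A member that missed the filter in a fit has no value there. For AIA minus Control, Psg22 went from -0.17 to 0.074 (pseudocount 0.1), 0.52 (voom) and 0.57 (without the pair, with or without the filter), and to a range of -0.62 to 0.58 on leaving out 1 library (0.58 without Control 17, 0.10 without AIA 10). Prl2c5 went to 0.18 without the pair and no filter. In that setting Acu minus AIA went to -0.054 for Prl8a2, -0.13 for Psg23 and -0.13 for Prl2c5, and Acu minus Control to -0.50 for Tpbpa and -0.49 for Psg23. By voom Tpbpa went to -0.074 in Acu minus Control. Leaving out 1 library gave -3.27 to 1.04 for Prl8a2 (1.01 without Acu 6, 1.04 without Acu 28) and -0.94 to 4.55 for Prl8a9 (-0.94 without Acu 4) in Acu minus Control. The cause of these moves was not tested.

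Members counted at 5 FPKM in place of 1 FPKM numbered 15 in the library labelled Control 17 and 0 in Control 15, AIA 31, AIA 38 and Acu 6. At 0.5 FPKM there were 2 in Control 16, AIA 5, AIA 10 and Acu 28. At 10 reads or more there were 2 in Control 15 and 16, 1 in AIA 10 and 3 in Acu 28. The trophoblast share in the library labelled Control 17 was 3.20% by reads, 2.89% with Prl6a1 as trophoblast and 2.03% without Prl2c5, its highest trophoblast member. In the library labelled Acu 4 it was 90.5% by reads and 81.1% without Prl3b1. In the 8 libraries, at most 124 member reads limit every level given.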
